A study of Mus musculus with 20 samples.

Results

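The genes described are 10 markers that are used to tell apart 2 kinds of lung fibroblast, 6 for alveolar fibroblasts (Tcf21, Npnt, Wnt2, Col13a1, Inmt and Limch1) and 4 for adventitial fibroblasts (Pi16, Col14a1, Dcn and Dpt). They were chosen by symbol from the 24062 genes listed in the count tables, and all 10 were among the 15766 genes that had enough reads to be tested. They were measured by RNA-seq of whole lungs from adult mice of a C57/129 background, 8 to 10 weeks old. The mice were wild type (Arg2+/+) or carried a knockout of Arg2 (Arg2-/-), the gene for the mitochondrial arginase. They lived for 28 days either in room air with 21% oxygen or in hypoxia with 10% oxygen, which gives 4 groups of 4 samples. The lungs were frozen whole, so every value is an average over all cells of the organ, and fewer cells of a type and less RNA per cell cannot be told apart.

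Alveolar fibroblasts lie in the walls of the air sacs, next to the epithelial cells whose renewal they support, and adventitial fibroblasts lie in the loose sheath around larger vessels and airways. Both kinds build extracellular matrix, but they secrete different sets of collagens, proteoglycans and growth factors. In chronic hypoxia the sheath of the pulmonary arteries is known to thicken, and its fibroblasts are among the cells that take part. Npnt and Limch1 are not restricted to fibroblasts in the lung, since epithelial or endothelial cells express them too.

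Levels are given in CPM, the reads of a gene scaled to a common library size. Depth, as reads assigned to genes, was lowest in wild type room air sample 3 (9531270) and highest in knockout room air sample 3 (63331530). Wild type room air sample 3 also had the smallest share of reads in genes, 25.4%, followed by wild type hypoxia sample 1 with 35.47% and knockout hypoxia sample 3 with 37.65%. The labels speak of mice of both sexes, but Y-linked counts exceeded those of Xist in all 16 samples. Wild type hypoxia sample 4 stood apart from its group. The chi-square per degree of freedom against the other 3 samples was 136.5 to 144.3, where all other pairs of samples within a group had 3.76 to 22.3. In this sample 19.9% of the reads in genes belonged to Rn45s, the ribosomal RNA precursor, looked up after the values were seen, against 0.518% to 1.33% in the other 15 samples. Member results that turn on it are given without it too. Markers of other organs stood out most in 4 knockout samples and in 1 wild type sample. The summed exocrine pancreas markers reached 2074 CPM in knockout hypoxia sample 1 and 162 CPM in sample 2, and the summed thymocyte markers reached 98.5 and 84.6 CPM in knockout room air samples 3 and 4. The summed skeletal muscle markers reached 1366 CPM in wild type room air sample 1, against 7.02 to 50.5 CPM in all other samples, and the summed heart muscle markers were highest in knockout room air sample 3, at 1051 CPM, followed by wild type room air sample 1, at 612 CPM. Arg2 itself was 9.30 ± 2.25 CPM (SD, n = 4) in wild type hypoxia and 4.28 ± 0.91 CPM in knockout hypoxia (log2 fold change -1.13 ± 0.22 (SE), edgeR adjusted p = 0.00191). In room air Arg2 was 9.19 ± 1.92 CPM in wild type and 5.62 ± 1.47 CPM in the knockout (-0.70 ± 0.21, adjusted p = 0.0842). The sample labelled knockout room air 4 had 7.78 CPM, above the 7.30 CPM of wild type room air sample 4 and the 6.33 CPM of wild type hypoxia sample 1, while the other 7 knockout samples had at most 5.37 CPM. Arg2 shares 285 exon bases with Vti1b on the opposite strand, and the sources used here do not say how reads there were assigned.

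Dpt and Wnt2 were lower in knockout hypoxia than in both knockout room air and wild type hypoxia. Dpt encodes dermatopontin, a small matrix protein that speeds the assembly of collagen fibrils. Wnt2 encodes a secreted ligand of the Wnt pathway, made by the lung mesenchyme, that is needed for lung development in the mouse. On GRCm38 the Dpt gene, with 4 exon blocks, lies on chromosome 1 from 164796644 to 164824266 on the plus strand, and the Wnt2 gene, with 5 exon blocks, lies on chromosome 6 from 17988940 to 18030585 on the minus strand. Their promoters are shown because the results turn on these 2 members. Each line gives the 250 bases before the start of the RefSeq transcript on GRCm38.p6, 5′ to 3′ on the strand of the gene, with matches to any of 4 short motifs in capitals. The Dpt window is chr1:164796413-164796662 on the plus strand and the Wnt2 window is chr6:18030446-18030695 on the minus strand. The gene coordinates are those of GENCODE vM21, and by them both windows reach past the start of the gene.
Dpt: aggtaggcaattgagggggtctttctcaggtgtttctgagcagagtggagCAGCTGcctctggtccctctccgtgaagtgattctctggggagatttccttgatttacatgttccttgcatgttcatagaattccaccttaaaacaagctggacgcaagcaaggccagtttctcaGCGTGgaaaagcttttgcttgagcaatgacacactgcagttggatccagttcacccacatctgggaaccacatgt
Wnt2: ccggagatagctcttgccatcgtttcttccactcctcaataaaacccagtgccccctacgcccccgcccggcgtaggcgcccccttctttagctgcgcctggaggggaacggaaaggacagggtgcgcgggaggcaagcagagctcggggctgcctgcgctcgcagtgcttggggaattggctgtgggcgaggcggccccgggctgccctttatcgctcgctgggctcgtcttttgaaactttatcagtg

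The motifs searched, on both strands, were ACGTG and GCGTG (cores of the hypoxia response element), CAGCTG (an E-box that TCF21 and related factors can bind) and TATAAA. The search covered 300 bases, from 250 before to 50 after the start. The Dpt window held GCGTG at position -75 and CAGCTG at position -200, counted from the start, with a further CAGCTG at 7 and a TATAAA at 13 after the start. The Wnt2 window held none of the 4. Dpt had 4 CpG pairs and 48.7% GC in this window, and Wnt2 had 27 CpG pairs and 65.7% GC. Of all 27025 promoter windows, 43.8% held ACGTG or GCGTG, 16.1% held CAGCTG and 14.2% held TATAAA. A promoter was found for 8 of the 10 members (Col14a1 and Dcn had no entry). At the first listed start, ACGTG or GCGTG occurred in 3 of them (Tcf21, Col13a1 and Dpt), CAGCTG in 3 (Inmt, Pi16 and Dpt) and TATAAA in 3 (Col13a1, Inmt and Dpt).

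Levels of different genes were compared per kilobase of exon. Inmt, which encodes an enzyme that methylates indole amines, had the highest level of the 10 members in all 4 groups, with means from 694 CPM per kb in wild type hypoxia to 866 CPM per kb in wild type room air. Limch1, whose product binds non-muscle myosin in human cells, came next with 100.5 to 116 CPM per kb. Npnt and Dpt followed at places 3 and 4 in a changing order. In wild type room air they were at 88.3 ± 6.4 and 85.8 ± 4.7 CPM per kb, a gap smaller than either SD, while in knockout hypoxia they were at 84.7 ± 8.1 and 52.9 ± 3.5 CPM per kb. Dcn (26.9 to 34.8 CPM per kb) and Tcf21 (13.7 to 17.0 CPM per kb) stood at places 5 and 6 in every group. Wnt2, Col13a1 and Col14a1 shared places 7 to 9 at 5.99 to 11.03 CPM per kb, and Pi16 was lowest in every group at 3.51 to 4.77 CPM per kb. The smallest count of any member in any sample was 127 reads, for Wnt2 in wild type room air sample 3.

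**Figure D1:**
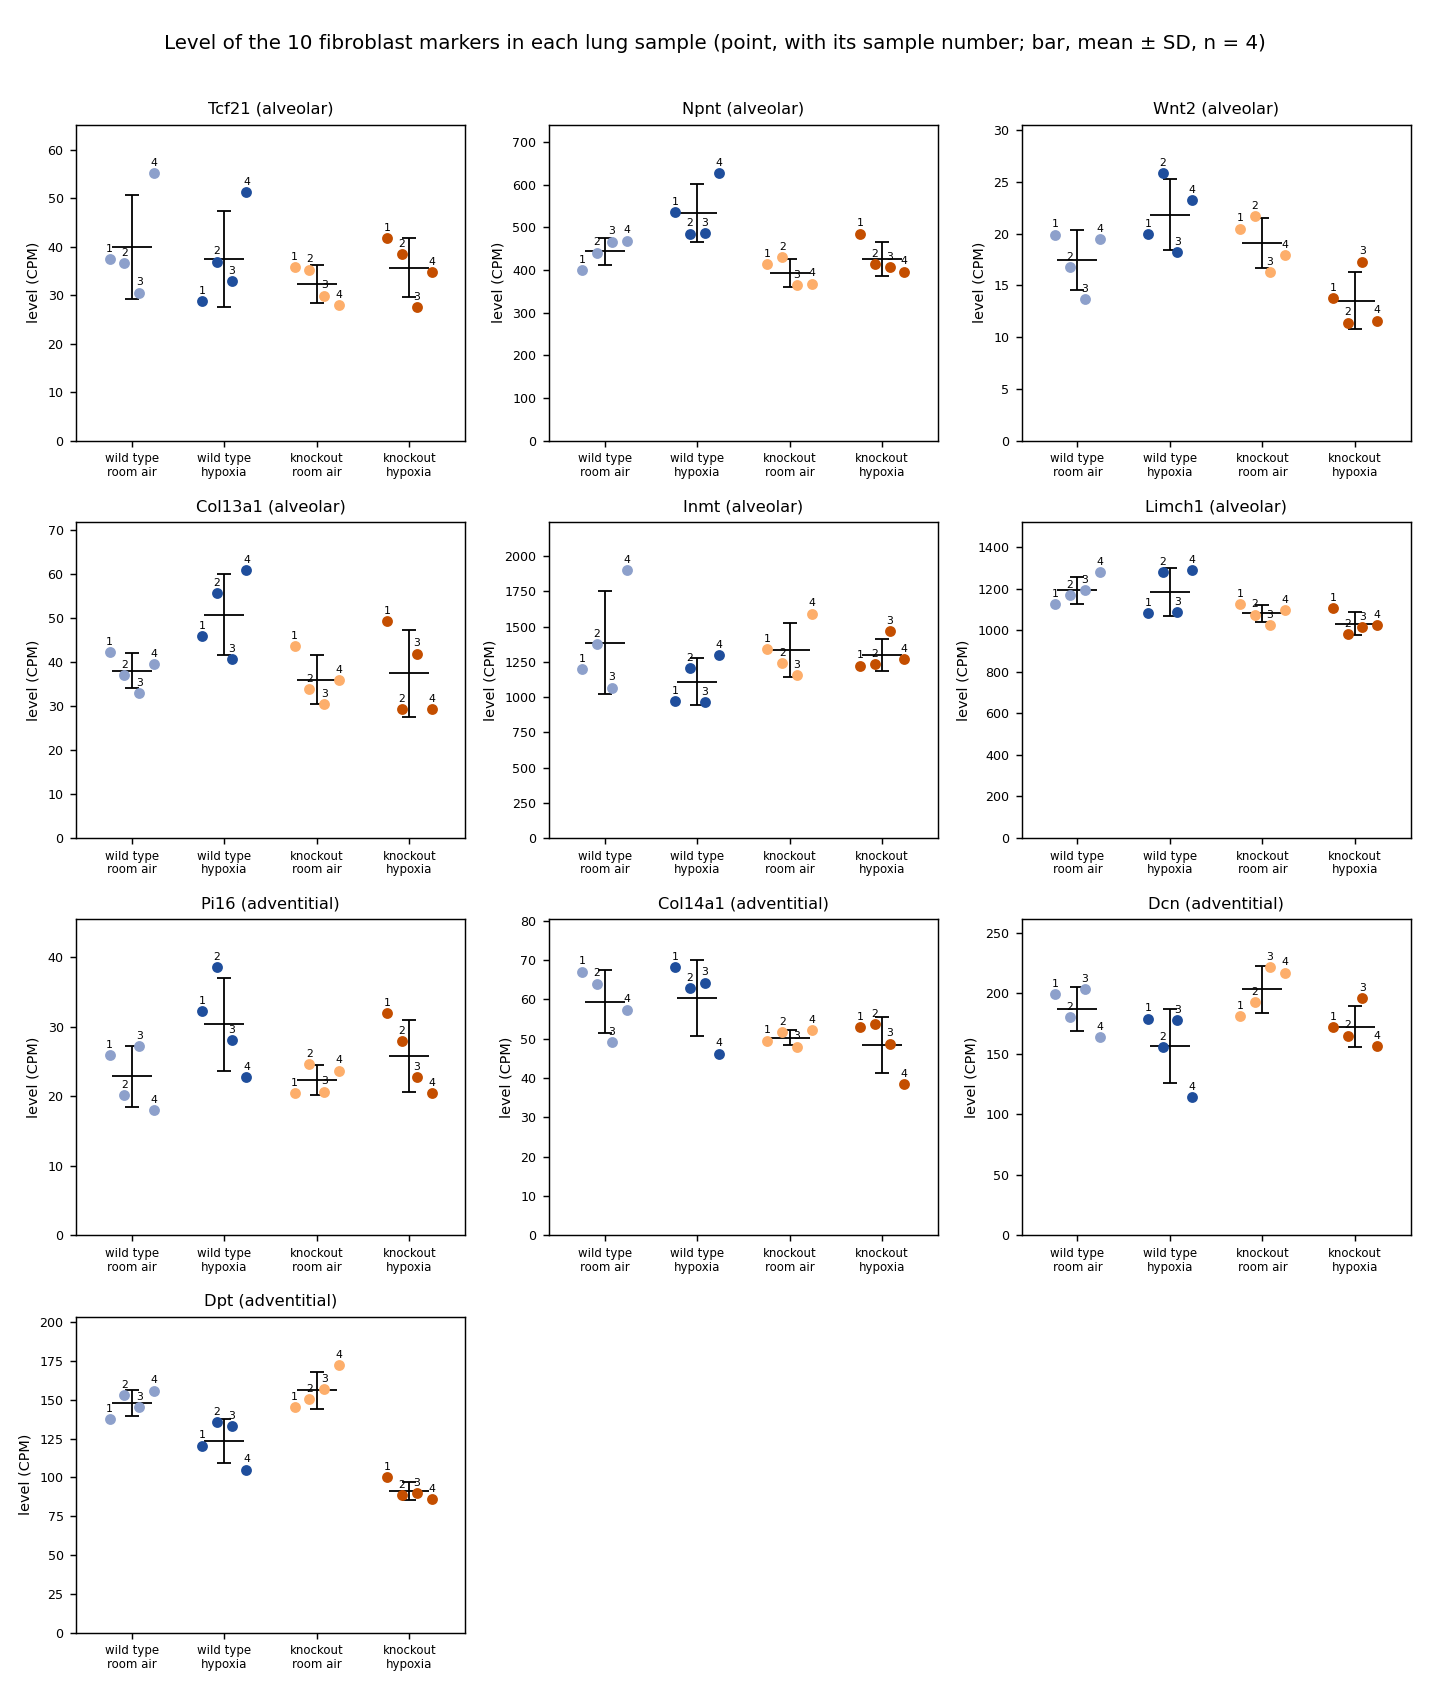
Level in CPM (vertical axis, from 0) of each of the 10 markers in the 4 groups (horizontal axis). Points are single lung samples with their number, bars are the mean ± SD of 4 samples. The 4 knockout hypoxia samples of Dpt lie between 86.2 and 100.1 CPM, below all other samples.

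In wild type lungs, none of the 10 members passed the test between hypoxia and room air, where 4.98% of all genes tested were called (edgeR, adjusted p under 0.05). At an unadjusted p under 0.05 there were 5 members, against 16.3% of all genes. The groups did not overlap for 2 members, Npnt and Dpt, against 8.23% of all genes. The median log2 fold change was 0.13 over the alveolar members, with 3 of 6 above 0, and -0.12 over the adventitial members, with 2 of 4 above 0, beside -0.01 over all genes. The intervals below are the estimate ± 2 SE.

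Among the alveolar members, Npnt encodes nephronectin, a matrix ligand of the integrin made of Itga8 and Itgb1. Npnt was 399, 441, 467 and 469 CPM in wild type room air samples 1 to 4, and 535, 486, 486 and 628 CPM in wild type hypoxia samples 1 to 4. All 4 hypoxia samples lay above the room air samples, with sample 4 highest, at a log2 fold change of 0.27 ± 0.10 (interval 0.07 to 0.46, adjusted p = 0.138). Without sample 4 it was 0.18 ± 0.09 (adjusted p = 0.319). Col13a1, a collagen that spans the cell membrane, measured 0.41 ± 0.17 (interval 0.08 to 0.75, adjusted p = 0.196). Wnt2 measured 0.31 ± 0.15 (interval 0.01 to 0.61, adjusted p = 0.314).

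Tcf21 encodes the basic helix-loop-helix factor of the lung mesenchyme that gives rise to lipid-storing alveolar fibroblasts. Its log2 fold change in wild type was -0.10 ± 0.19, with an interval of -0.47 to 0.27. Inmt measured -0.32 ± 0.15 (adjusted p = 0.302), and its highest value, 1900 CPM, belonged to wild type room air sample 4, where the other 3 samples of that group were between 1066 and 1374 CPM. Limch1 had the narrowest interval of the members, -0.17 to 0.15, around a log2 fold change of -0.01.

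Among the adventitial members in wild type, Dpt was 138, 153, 145 and 156 CPM in room air samples 1 to 4, and 121, 135, 133 and 105 CPM in hypoxia samples 1 to 4. The hypoxia samples all lay below the room air samples, with sample 4 lowest, at -0.26 ± 0.09 (interval -0.43 to -0.09, adjusted p = 0.0998). Without sample 4 it was -0.19 ± 0.08 (adjusted p = 0.213). Dcn encodes decorin, a proteoglycan that coats collagen fibrils and to which dermatopontin binds. Dcn measured -0.25 ± 0.12 (interval -0.50 to -0.01, adjusted p = 0.312). Pi16, which marks a progenitor-like fibroblast of the mouse, measured 0.42 ± 0.17 (interval 0.09 to 0.76, adjusted p = 0.193). Col14a1, a collagen that attaches to the surface of other fibrils, measured 0.02 ± 0.12, with an interval of -0.23 to 0.26. The single exon overlap of a member with another annotated gene was that of Pi16, which shares 222 exon bases with an antisense gene. Without knowledge of the strand setting, reads from the pair cannot be told apart.

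In knockout lungs, 2 of the 10 members passed the test between hypoxia and room air, and both fell. Of all genes tested, 17.0% were called and 9.1% were called and lower, so 2 of 10 members is close to the background. Dpt was 145, 151, 157 and 173 CPM in samples 1 to 4 of knockout room air, and in the hypoxia samples 1 to 4 it was 100.1, 88.7, 90.0 and 86.2 CPM. The hypoxia samples lay far below the room air samples, without overlap, and Dpt fell by 41.6% (log2 fold change -0.78 ± 0.09, adjusted p = 6.54e-06). The call was kept in all 28 alternative analyses, with log2 fold changes from -0.82 to -0.72. Dpt was the 1 member whose groups did not overlap here, against 24.3% of all genes.

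Wnt2 was 20.5, 21.7, 16.3 and 17.9 CPM in knockout room air samples 1 to 4 and 13.8, 11.4, 17.3 and 11.6 CPM in knockout hypoxia samples 1 to 4. Hypoxia sample 3 lay within the room air range and the other 3 lay below it. Wnt2 fell by 29.4% (log2 fold change -0.50 ± 0.15, adjusted p = 0.0269). This call was lost in 5 of the 28 alternatives, namely without knockout room air sample 1 or 2, without knockout hypoxia sample 2 or 4, and without the 4 knockout samples named above, where its log2 fold change was -0.56 ± 0.22 with an adjusted p of 0.152. The last of these fits has fewer samples in both knockout groups. It called 1092 genes in this comparison, against 2685 in the main fit. Calls lost in it, here and below, cannot be told apart from an effect of fewer samples.

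The other 8 members did not pass the test for hypoxia in the knockout. Dcn measured -0.24 ± 0.12 (adjusted p = 0.202), and it passed in 1 alternative, the fit on the groups compared alone (adjusted p = 0.0434). Pi16 measured 0.21 ± 0.17, Tcf21 0.15 ± 0.19 and Npnt 0.11 ± 0.10. Col13a1, Inmt, Limch1 and Col14a1 lay between -0.07 and 0.06, and the interval of Limch1 again was the narrowest, -0.22 to 0.09. The median was 0.01 over the alveolar and -0.15 over the adventitial members, beside 0.00 over all genes.

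**Figure D2:**
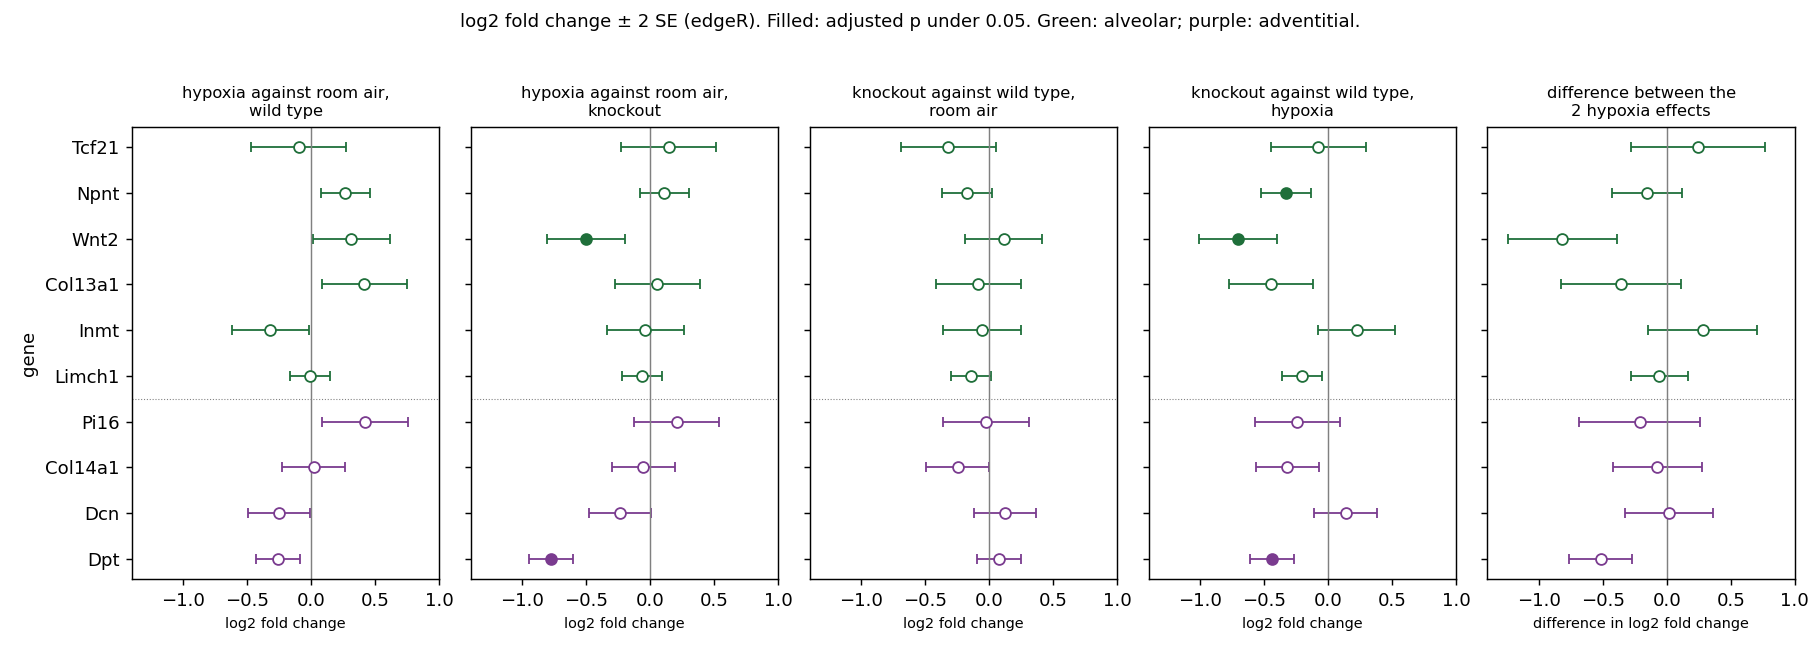
log2 fold change ± 2 SE (horizontal axis) of each marker (vertical axis) in the 4 comparisons and in the difference between the hypoxia effects of knockout and wild type, from edgeR. Filled points have an adjusted p under 0.05: Dpt and Wnt2 in knockout hypoxia against knockout room air, and Dpt, Wnt2 and Npnt between genotypes in hypoxia.

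In room air, none of the 10 members passed the test between genotypes, at adjusted p or at an unadjusted p under 0.05. Of all genes, 0.0761% were called and 21.6% had an unadjusted p under 0.05. The number called, 12 of 15766 genes, rested on single samples and on the method. It was 2198 (13.9%) without wild type room air sample 3, 1084 with DESeq2, 973 with limma voom and 0 in 7 of the 16 fits with single samples left out, and 0 members were called in any of these. The groups did not overlap for 1 member, Limch1 (log2 fold change -0.14 ± 0.08, adjusted p = 0.306), against 10.4% of all genes. Limch1 was 1125 to 1279 CPM in wild type and 1026 to 1125 CPM in the knockout, so the groups touched. Dpt measured 0.08 ± 0.09 with an interval of -0.10 to 0.25, and Wnt2 measured 0.11 ± 0.15 with an interval of -0.19 to 0.41. The estimate farthest from 0 was that of Tcf21, -0.32 ± 0.19 (adjusted p = 0.337). In Tcf21, wild type room air sample 4 was at 55.2 CPM and the other 3 samples of that group were between 30.5 and 37.4 CPM.

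In hypoxia, 3 of the 10 members passed the test between genotypes, and all 3 were lower in the knockout. Of all genes tested, 23.0% were called and 12.1% were called and lower. The 3 members, Dpt, Wnt2 and Npnt, were also the ones whose groups did not overlap, against 25.4% of all genes. At an unadjusted p under 0.05 there were 6 members, against 36.9% of all genes. The median log2 fold change was -0.26 over the alveolar members, with 1 of 6 above 0, and -0.28 over the adventitial members, with 1 of 4 above 0, beside -0.01 over all genes. Both comparisons in which members were called share the knockout hypoxia samples, so they are not independent of each other.

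Wnt2 was 19.96, 25.9, 18.2 and 23.3 CPM in wild type hypoxia samples 1 to 4, and its knockout hypoxia values, given above, were at most 17.3 CPM. It was lower in the knockout by a log2 fold change of -0.70 ± 0.15 (adjusted p = 0.00398), and the call was kept in all 28 alternatives with an adjusted p of at most 0.0479. Dpt, at 105 to 135 CPM in wild type hypoxia and 86.2 to 100.1 CPM in knockout hypoxia, was lower by -0.44 ± 0.09 (adjusted p = 0.00239), and this call too was kept in all 28. Without wild type hypoxia sample 4 the values were -0.67 ± 0.16 for Wnt2 (adjusted p = 0.0120) and -0.50 ± 0.08 for Dpt (adjusted p = 0.00098). Npnt was 485, 413, 407 and 397 CPM in knockout hypoxia samples 1 to 4. Its highest knockout sample, at 485 CPM, lay just under the lowest wild type sample, at 486 CPM. Npnt was lower by -0.33 ± 0.10 (adjusted p = 0.0211), but the call was lost in 5 of the 28 alternatives: without wild type hypoxia sample 4 (-0.24 ± 0.09, adjusted p = 0.0902), without knockout hypoxia sample 2, 3 or 4, and without the 3 samples with the smallest shares of reads in genes (adjusted p = 0.0868). The summed markers of type 1 alveolar epithelium, cells that also express Npnt, ranged from 9028 to 10430 CPM in wild type hypoxia and from 9010 to 10370 CPM in knockout hypoxia, so these groups overlapped. Of these 12 markers, 2 were called lower in the knockout and 0 higher, with a median of -0.10. The 2 were Gprc5a (-0.68 ± 0.14, adjusted p = 0.00353) and Aqp5 (-0.27 ± 0.07, adjusted p = 0.0113). The part of these cells in the difference of Npnt was not tested.

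A further 5 members were below 0 between genotypes in hypoxia without passing the test, and 3 of them had an unadjusted p under 0.05. Col13a1 measured -0.44 ± 0.17 (adjusted p = 0.0608), Col14a1 -0.32 ± 0.12 (adjusted p = 0.0682) and Limch1 -0.20 ± 0.08 (adjusted p = 0.0708), and each passed in some of the alternatives, Col14a1 without wild type hypoxia sample 4 (-0.42 ± 0.11, adjusted p = 0.0154) among them. Col13a1 was 45.8, 55.8, 40.7 and 60.9 CPM in wild type hypoxia and 49.3, 29.3, 41.9 and 29.4 CPM in knockout hypoxia, samples 1 to 4. Its knockout samples formed a low pair, 2 and 4, and a pair within the wild type range, 1 and 3. Pi16 measured -0.24 ± 0.17, with an interval of -0.57 to 0.09, and Tcf21 measured -0.07 ± 0.19, with an interval of -0.45 to 0.30. The estimates of Inmt (0.23 ± 0.15, interval -0.08 to 0.53) and Dcn (0.14 ± 0.12, interval -0.11 to 0.38) were above 0, neither past the test.

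Whether hypoxia acted differently in the 2 genotypes was tested directly. None of the 10 members passed (0.501% of all genes were called), and 2 had an unadjusted p under 0.05, against 14.1% of all genes. The difference between the hypoxia effects, knockout minus wild type, was -0.52 ± 0.12 for Dpt (adjusted p = 0.0626) and -0.82 ± 0.21 for Wnt2 (adjusted p = 0.0848). Thus Dpt fell in the knockout and missed the threshold in wild type, without a called difference between the effects. For Dpt the difference passed in 4 of the alternatives, among them the fit without wild type hypoxia sample 4 (-0.59 ± 0.11, adjusted p = 0.0254) and the removal of GC trends (adjusted p = 0.0321). For Wnt2 it passed in 1, with DESeq2 (adjusted p = 0.0162). DESeq2 called 485 genes in this comparison, where edgeR called 79.

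In each sample the mean log2 CPM of the 6 alveolar members was set against that of the 4 adventitial members, as a description without a test. The alveolar mean exceeded the adventitial one by 1.06 ± 0.25 (SD, n = 4) in wild type mice kept in room air and by 1.19 ± 0.41 in those kept in hypoxia. In the knockout it did so by 0.98 ± 0.17 without and 1.14 ± 0.11 with hypoxia. The ranges of the 4 groups overlapped. Wild type hypoxia sample 4 stood apart at 1.79, where the other 3 samples of its group were between 0.91 and 1.13, and without it that group's mean was 0.99. In this sample 5 of the 6 alveolar members were the highest of the group, all but Wnt2, and all 4 adventitial members were the lowest. Knockout hypoxia sample 4 likewise had the lowest value of its group in all 4 adventitial members, but it was the highest in none of the alveolar members. In wild type room air, sample 4 was the highest in 4 of 6 alveolar members, and in knockout room air, sample 3 was the lowest in 5 of 6.

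**Figure D3:**
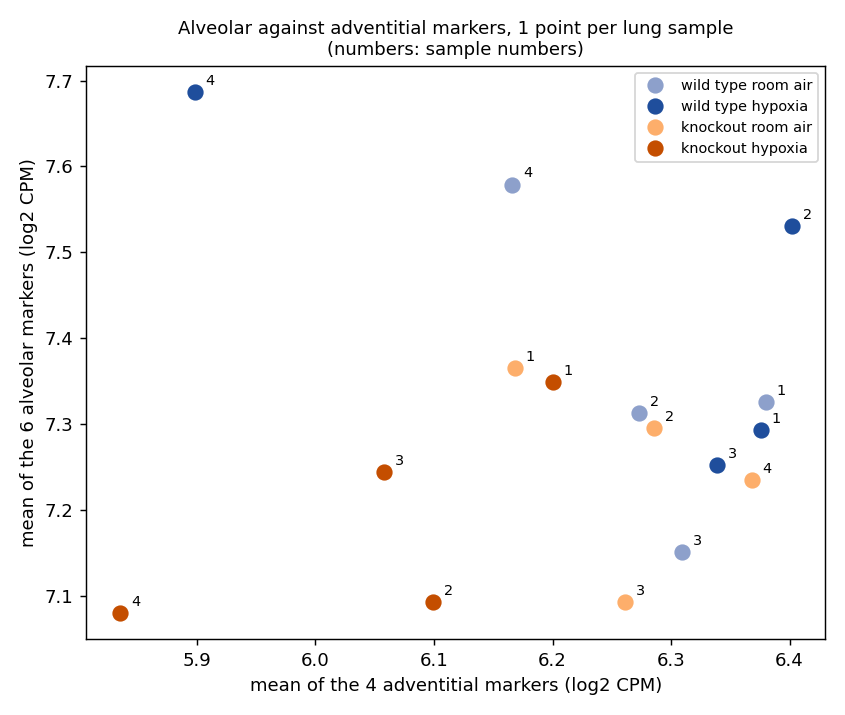
Mean log2 CPM of the 6 alveolar markers (vertical axis) against that of the 4 adventitial markers (horizontal axis), with 1 numbered point per lung sample, coloured by group. Wild type hypoxia sample 4 has the highest alveolar mean, 7.69, with an adventitial mean of 5.90, and knockout hypoxia sample 4 has the lowest adventitial mean, 5.84.

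**Figure D4:**
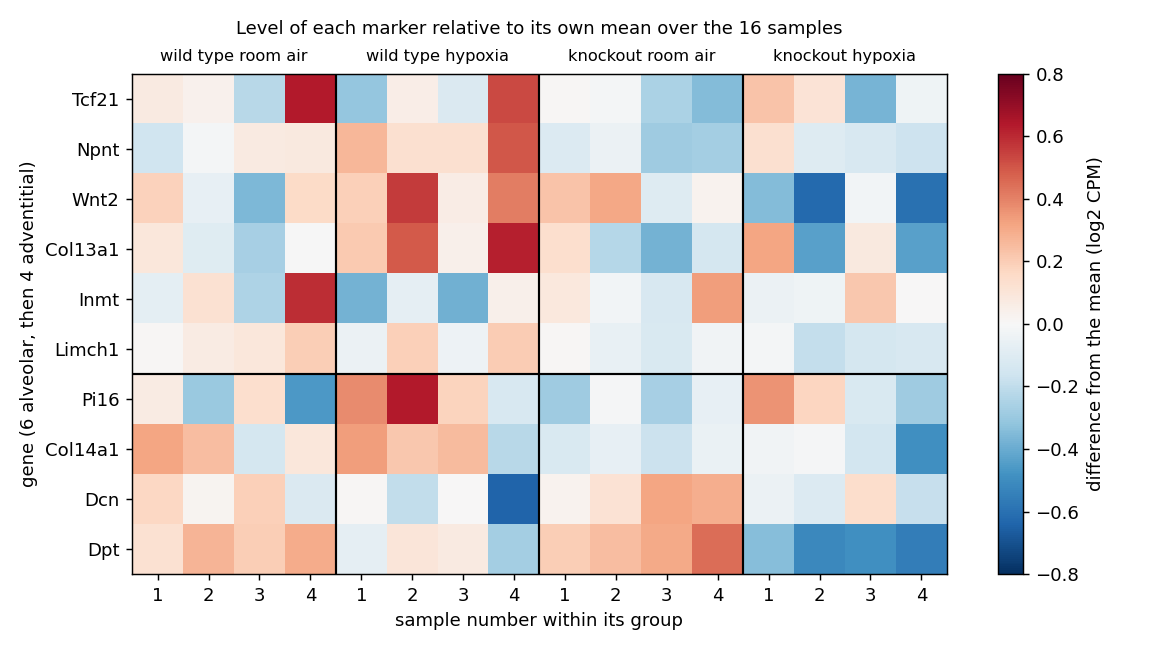
Level of each marker (rows, 6 alveolar above 4 adventitial) in each of the 16 samples (columns, by group and sample number), as the difference in log2 CPM from the marker's own mean. Red is above and blue below that mean. Dpt is blue in all 4 knockout hypoxia samples, and sample 4 of wild type hypoxia is red in the alveolar rows and blue in the adventitial rows.

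Further adventitial markers, 17 genes from a list that leaves out the members, give the surroundings of Dpt. In knockout hypoxia against knockout room air, 4 of the 17 fell and 2 rose, with a median log2 fold change of -0.22 beside 0.00 over all genes. There 17.0% of all genes were called and 9.1% were called and lower. The 2 that rose were Mfap5 (0.45 ± 0.12, adjusted p = 0.0108) and Ly6a (0.41 ± 0.11, adjusted p = 0.0103). The largest fall among those named by the smallest p was that of Adh7, an alcohol dehydrogenase, at 15.6, 16.8, 19.4 and 17.3 CPM in knockout room air samples 1 to 4 and 7.31, 7.89, 7.85 and 7.54 CPM in knockout hypoxia samples 1 to 4. The hypoxia samples of Adh7 lay close together and far below the others (-1.18 ± 0.14, adjusted p = 8.41e-06). Scara5, a scavenger receptor for ferritin, was 14.4, 17.2, 17.2 and 17.0 CPM in knockout room air and 10.99, 10.7, 8.30 and 7.30 CPM in knockout hypoxia (-0.82 ± 0.15, adjusted p = 0.000624). Dpp4, a peptidase of the cell surface that many other cells carry too, fell by 0.37 on the log2 scale (adjusted p = 0.00354). Without the 4 knockout samples named above, 2 of the 17 fell and 0 rose, and Adh7 and Scara5 kept their calls there and in all other alternatives.

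Between genotypes in hypoxia, 23.0% of all genes were called and 12.1% were called and lower. Of these 17 genes, 8 were lower in the knockout and 0 higher, with a median of -0.43 beside -0.01 over all genes. They included Adh7 (-0.69 ± 0.14, adjusted p = 0.00234), Scara5 (-0.73 ± 0.15, adjusted p = 0.00256) and Entpd2 (-0.78 ± 0.18, adjusted p = 0.00559), an enzyme that splits extracellular ATP. The number lower was 4 without knockout hypoxia sample 4, and 4 without the 3 samples with the smallest shares of reads in genes. The summed level of the 17 did not follow that count. It was 1333 to 1513 CPM in wild type hypoxia and 1580 to 1716 CPM in knockout hypoxia, and it rests mainly on Ogn and Ly6a, which were looked up after the values were seen and had means of 608 and 485 CPM in knockout hypoxia against 433 and 408 CPM in wild type hypoxia.

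The difference between the hypoxia effects, called in 0.501% of all genes, itself passed the test for 2 of the 17. These were Scara5 (-0.98 ± 0.20, adjusted p = 0.0364) and Adh7 (-0.89 ± 0.19, adjusted p = 0.0392). These 2 calls were lost in 14 and 15 of 27 alternatives, most of them fits with samples left out. In wild type, 2 of the 17 rose in hypoxia and 0 fell, where 4.98% of all genes were called. The 2 were Col15a1, a basement membrane collagen (0.98 ± 0.19, adjusted p = 0.00339), and Mfap5, a microfibril protein (0.41 ± 0.12, adjusted p = 0.04995). Mfap5 lost its call in 21 of 28 alternatives. In room air, none of the 17 passed between genotypes, where only 0.0761% of all genes were called.

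Adventitial tissue borders on fat, and adipocyte markers as a group were also lower in knockout hypoxia than in knockout room air. The summed level of 9 adipocyte markers was 107, 133, 181 and 91.6 CPM in knockout room air samples 1 to 4 and 75.8, 70.2, 33.2 and 40.0 CPM in knockout hypoxia samples 1 to 4. It was 64.1 to 153 CPM in wild type room air and 76.1 to 151 CPM in wild type hypoxia. Within knockout room air, sample 4 had the highest Dpt level, 173 CPM, and the lowest adipocyte sum. Within knockout hypoxia, sample 1 was highest in both. Of the 8 adipocyte markers tested, 5 fell in knockout hypoxia against knockout room air (3 without the 3 samples with the smallest shares of reads in genes), with a median of -1.94, and the defining marker Adipoq went from 9.20 to 17.2 CPM in room air to 1.02 to 5.36 CPM in hypoxia. Other lists fell as well in that comparison. There 17.0% of all genes were called, 9.1% were called and lower, and 24.3% had no overlap between the groups. Of 9 heart muscle markers, 6 fell (median -1.25), and their summed level went from 439 to 1051 CPM in knockout room air to 183 to 396 CPM in knockout hypoxia, without overlap. The number of them that fell ranged from 2 to 8 over the alternatives. It was 3 without knockout room air sample 3, 2 without knockout hypoxia sample 2, 3 or 4, 4 without wild type hypoxia sample 1 or 3 and 4 without the 4 knockout samples. Of 9 airway epithelium markers, 5 fell (median -0.46), and their summed level went from 17890 to 20280 CPM to 14940 to 17030 CPM, without overlap. The number that fell was 3 without knockout room air sample 1, 2 or 3 or knockout hypoxia sample 3 or 4, and 1 without the 4 knockout samples. Of 10 smooth muscle markers, 3 fell (median -0.08; 2 without knockout hypoxia sample 4 and 2 without the 4 knockout samples), with sums of 1097 to 1214 CPM and 914 to 1325 CPM that overlapped. The part of these cells in the fall of Dpt was not tested. The summed mesothelium markers were 425 to 485 CPM in knockout room air and 393 to 496 CPM in knockout hypoxia, so those ranges overlapped.

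**Figure D5:**
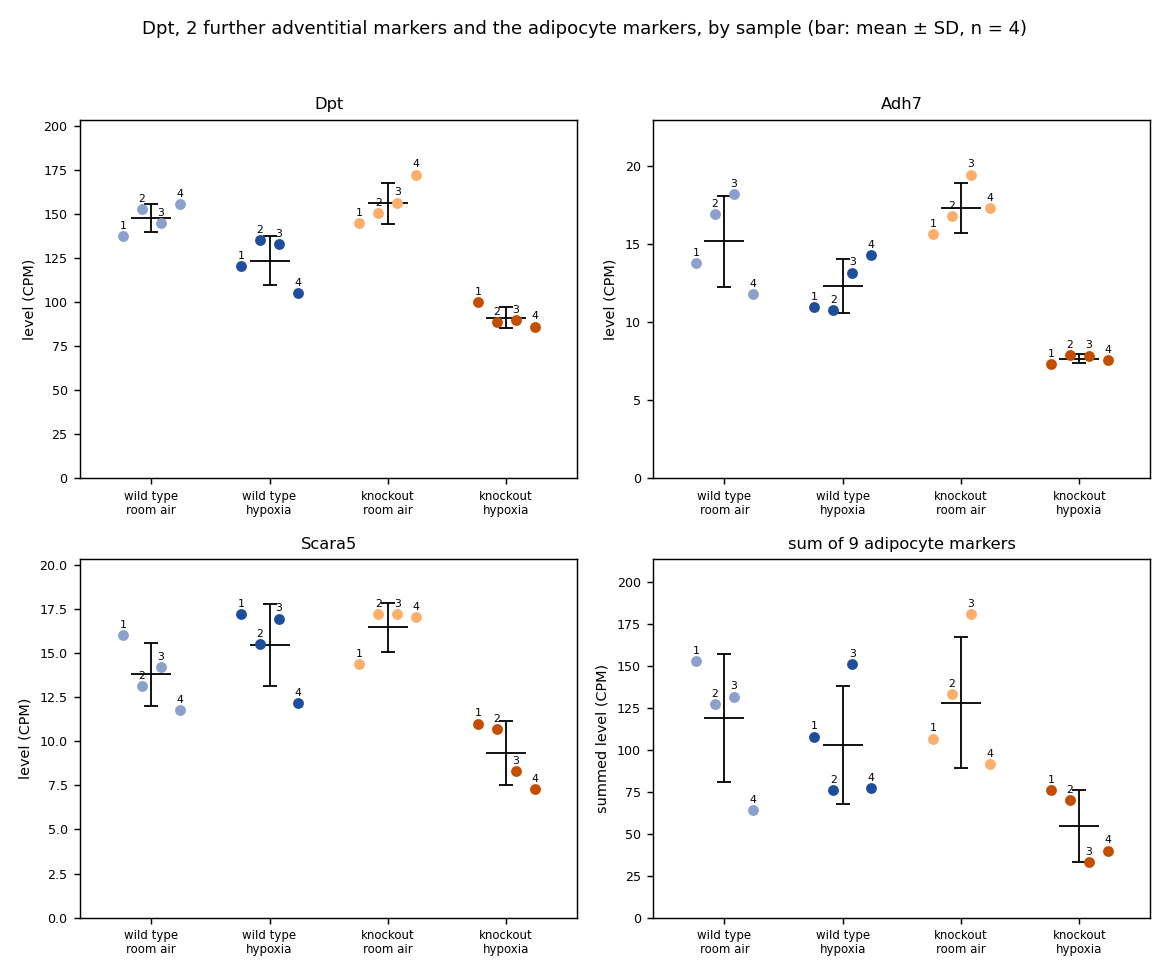
Level in CPM (vertical axes, from 0) of Dpt, Adh7 and Scara5 and summed level of 9 adipocyte markers in the 4 groups (horizontal axes). Points are single samples with their number, bars the mean ± SD of 4 samples. The 4 knockout hypoxia samples lie lowest for Dpt, Adh7 and Scara5. Their adipocyte sums are 33.2 to 75.8 CPM, and those of samples 3 and 4 lie below all samples of the other groups.

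Further alveolar markers were 12 genes outside the members. In wild type hypoxia 2 rose and 0 fell, with Mfap4, a protein of elastic fibres, at 1.39 ± 0.16 (adjusted p = 2.44e-05) and Bmp3, a secreted ligand of the TGF-β family, at 0.37 ± 0.09 (adjusted p = 0.0257, a call lost in 8 of 28 alternatives). Mfap4 was 124, 132, 158 and 198 CPM in wild type room air and 381, 343, 342 and 534 CPM in wild type hypoxia. These groups lay far apart. In knockout hypoxia Mfap4 rose as well (0.81 ± 0.15, adjusted p = 0.00133). This call was lost without the 4 knockout samples named above, but the log2 fold change was at least 0.73 in all 28 alternatives. Slc7a10, an amino acid transporter, fell in knockout hypoxia (-0.73 ± 0.18, adjusted p = 0.00701). Between genotypes in hypoxia 1 of the 12 was called, Slc7a10, lower in the knockout (-0.81 ± 0.18, adjusted p = 0.00414). The shares of all genes called were 4.98% with hypoxia in wild type, 17.0% in the knockout and 23.0% between genotypes in hypoxia. The summed level of the 12 was 2715 to 3147 CPM in wild type hypoxia and 2790 to 3205 CPM in knockout hypoxia, and these ranges overlapped.

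Markers shared by most fibroblasts, 15 genes, give the background of both kinds. In hypoxia 7 of the 15 were lower and 1 was higher in the knockout than in wild type, with a median of -0.34 beside -0.01 over all genes. Of all genes, 23.0% were called there and 12.1% were called and lower. Col5a1 was lower (-0.55 ± 0.14, adjusted p = 0.0105) and so was Fbn1, the microfibril protein fibrillin (-0.47 ± 0.13, adjusted p = 0.0159), while Foxf1, a transcription factor of the lung mesenchyme, was higher (0.47 ± 0.12, adjusted p = 0.00883). The number lower ranged from 1 to 8 over the alternatives. It was 1 without knockout hypoxia sample 4, 2 without wild type hypoxia sample 2 or knockout hypoxia sample 2 or 3, 4 without wild type hypoxia sample 1, 3 or 4, and 3 without the 3 samples with the smallest shares of reads in genes. Pdgfra, the receptor that defines most of these cells, was 443 to 553 CPM in wild type hypoxia and 493 to 641 CPM in knockout hypoxia. With hypoxia in the knockout, the comparison in which Dpt and Wnt2 fell, 2 of the 15 rose (Sparc and Fn1) and 2 fell (Col5a1 and Mfap2), with a median of -0.08. Of all genes, 17.0% were called in that comparison. Without the 4 knockout samples 0 rose and 2 fell, and 1 rose and 1 fell in 9 of the 16 fits with single samples left out. The summed level of the 15 had a median of 3914 CPM in knockout room air and 4617 CPM in knockout hypoxia, with ranges of 3788 to 4281 CPM and 4271 to 5322 CPM. That sum rests most on Sparc, with means of 1338 CPM in knockout room air and 1988 CPM in knockout hypoxia. Of the 15 genes, 6 had a log2 fold change above 0 in that comparison. The relation of these genes to Dpt and Wnt2 was not tested.

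Among 16 genes of activated fibroblasts and myofibroblasts, 4 rose and 1 fell with hypoxia in wild type, and 3 rose and 1 fell in the knockout. The 4 include Lrrc15, with means of 0.027 CPM in wild type room air and 0.311 CPM in wild type hypoxia. Both lie below 0.315 CPM, the highest limit that 0 reads allow in any sample. Of all genes, 4.98% were called with hypoxia in wild type, 17.0% in the knockout and 23.0% between genotypes in hypoxia. Aspn, a proteoglycan related to decorin, rose in both (1.31 ± 0.20, adjusted p = 0.000634, and 1.74 ± 0.20, adjusted p = 1.5e-05). Hhip, an inhibitor of hedgehog signalling, fell in both (-0.44 ± 0.11, adjusted p = 0.0254, and -0.92 ± 0.11, adjusted p = 1.91e-05), and its call in wild type was lost in 6 of 28 alternatives. Between genotypes in hypoxia 2 of the 16 were higher in the knockout, Aspn among them (1.10 ± 0.19, adjusted p = 0.00139), and 3 were lower, Hhip among them (-0.59 ± 0.11, adjusted p = 0.00195). The number that rose in wild type ranged from 1 to 9 over the alternatives, with 2 without wild type room air sample 2 or wild type hypoxia sample 3 and 7 without wild type hypoxia sample 4. The number lower between genotypes was 1 without knockout hypoxia sample 3 or 4. None of the 16 was called between genotypes in room air or for the difference between the effects, where only 0.0761% and 0.501% of all genes were called.

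Wnt2 was set beside 37 other tested genes of the Wnt pathway, its ligands, receptors, inhibitors and targets. In knockout hypoxia against knockout room air, 6 fell and 1 rose, where 17.0% of all genes were called and 9.1% were called and lower. Without the 4 knockout samples named above, 3 fell and 0 rose. The ligand gene Wnt7a fell (-0.66 ± 0.15, adjusted p = 0.00497), as did Lef1, a transcription factor of the pathway (-0.90 ± 0.17, adjusted p = 0.00127), and Dkk3, a member of the Dickkopf family, rose (0.44 ± 0.07, adjusted p = 0.000378). Between genotypes in hypoxia 8 were lower and 4 higher in the knockout, where 23.0% of all genes were called and 12.1% were called and lower. Wnt7a, at 16.3 to 26.9 CPM in wild type hypoxia and 10.1 to 11.7 CPM in knockout hypoxia, was lower without overlap (-0.98 ± 0.15, adjusted p = 0.000388), and so was Lef1 (-0.81 ± 0.17, adjusted p = 0.0039), while Dkk3 was higher (0.38 ± 0.07, adjusted p = 0.00235). The number lower ranged from 2 to 10 over the alternatives. It was 3 without wild type hypoxia sample 4 or knockout hypoxia sample 3, 4 without knockout hypoxia sample 2, 5 without wild type hypoxia sample 1 or knockout hypoxia sample 4, and 2 without the 4 knockout samples named above. The number higher was 2 without wild type hypoxia sample 1, without knockout hypoxia sample 1 and without those 4 samples. In wild type 1 of the 37 rose with hypoxia, Dkk3 (0.31 ± 0.08, adjusted p = 0.0186), and 1 fell, Wnt2b, the ligand closest to Wnt2 (-0.86 ± 0.23, adjusted p = 0.0326). These calls in wild type were lost in 6 and 10 of 28 alternatives.

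Relatives of the matrix members were counted as well. Of all genes, 4.98% were called with hypoxia in wild type, 17.0% in the knockout and 23.0% between genotypes in hypoxia. Of 11 tested small leucine-rich proteoglycans, the family of Dcn, 2 rose with hypoxia in wild type and 3 in the knockout, 0 fell, and between genotypes in hypoxia 1 was higher and 4 were lower in the knockout. The number lower was 2 without wild type hypoxia sample 4 or knockout hypoxia sample 3 or 4. Of 7 tested collagens of the types that Col14a1 and Col13a1 belong to, 0 were called in wild type hypoxia and 2 fell in knockout hypoxia, Col17a1 (-1.16 ± 0.23, adjusted p = 0.00186) and Col23a1 (-0.49 ± 0.10, adjusted p = 0.00244), which both span the membrane like Col13a1. Of 8 binding partners of Npnt and their relatives, 1 rose in knockout hypoxia, the integrin subunit Itgb1 (0.32 ± 0.08, adjusted p = 0.0107). Between genotypes in hypoxia Itgb1 was higher (0.24 ± 0.08, adjusted p = 0.0439) and Fras1, a basement membrane protein, was lower (-0.78 ± 0.23, adjusted p = 0.0256). Both calls were lost in several alternatives, in 18 of 28 for Itgb1 and in 7 for Fras1.

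Finally, the profile of each member over the 16 samples was compared with those of 14238 tested genes with a mean of at least 1 CPM, by the root mean square (RMS) difference of log2 CPM after each gene was centred on its own mean. The 3 genes nearest to Dpt were Rassf5 (RMS 0.113), Plbd1 (0.115) and Arhgdib (0.121), where the profile of Dpt itself had an RMS of 0.319 around its mean. Rassf5 fell from a mean of 42.6 CPM in knockout room air to 28.0 CPM in knockout hypoxia. The genes nearest to Wnt2 were Dcaf4 (0.154), Accs (0.183) and Chn2 (0.192), and those nearest to Npnt were Ralgapa2 (0.09), Agap1 (0.094) and Myo1d (0.094). The other members had as their nearest genes Sh2b1 (Tcf21), Myh11 (Col13a1), Tmem204 (Inmt), Cdipt (Limch1), Tagln (Pi16), Ndst2 (Col14a1) and Csrp2 (Dcn). No member had another member among its 3 nearest genes. The closest was Npnt, at rank 43 for Col13a1, and for Dcn the nearest member, Col14a1, stood at rank 5415.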

How the data were processed

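The 20 RNA-seq libraries were made from total RNA of snap-frozen lung, depleted of ribosomal RNA and prepared with a directional kit, per the labels' protocols. Per the submitters' processing notes, the tools were Trim Galore, TopHat2 and HTSeq with the build mm10. Versions, annotation and strand setting are, for all of these, not given in the sources used here. Values deposited by the authors are raw read counts per gene symbol. The lines that name no gene stayed out of library sizes and tests, and the share of assigned reads, against those outside genes, was 25.4% to 64.16%.

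Room air libraries lettered A and B under 1 number (4 such pairs) were summed, which left 16 samples. Each pair's members were nearest to each other (chi-square per degree of freedom 1.52 to 2.1, against at least 3.84 to other numbers). Samples were treated as separate mice, though no label says so, and the p-values reflect the spread among samples, which may be technical. Samples were not paired by number, because the rule set for pairing was not met. It asked for a correlation over 0.1 in every same-numbered pair, so it cannot exclude a factor shared by some of them.

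Counts were fitted in R 4.3.3 with edgeR 4.0.16 (TMM scaling, filterByExpr with a minimum count of 10 and total of 15, a robust quasi-likelihood fit over all 4 groups without covariates, two-sided tests, Benjamini-Hochberg adjustment over 15766 genes). A gene is called at an adjusted p under 0.05. The fit was tested on simulated data. CPM use TMM-scaled library sizes, log2 CPM a prior count of 2, and per-kilobase values the exon union of GENCODE vM21. The limit that 0 reads allow (3 counts, counting error only) was 0.0474 to 0.315 CPM. The 28 alternatives included RLE and upper quartile scaling, no filter, limma 3.58.1, DESeq2 1.42.0 and samples left out. Members, gene lists and tests were chosen with earlier results of these data known. Genes other than members were named as the up to 3 called genes of a list with the smallest p in a comparison, as defining markers, or as the 3 nearest profiles of a member. Some, such as Rn45s, Ogn, Ly6a and Lrrc15, were looked up after the values were seen. Promoter sequences are those of RefSeq on GRCm38.p6.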

Additional observations from a re-analysis of the deposited data

How the results depend on the processing

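The 28 alternatives changed the number of called members as follows. For hypoxia in the knockout, where 2 members were called, the number was 3 with only the groups compared (Dcn added). It was 1 without the 4 knockout samples named in the Results and 1 to 2 with single samples left out. Between genotypes in hypoxia, where 3 were called, it was 5 with upper quartile scaling (Col13a1 and Limch1 added), 5 with DESeq2 (the same 2 added), 4 with limma voom (Col13a1 added), 2 without the 3 samples with the smallest shares of reads in genes (Npnt lost) and 2 to 4 with single samples left out. For the difference between the hypoxia effects, where 0 were called, it was 1 with upper quartile scaling, 1 after removal of GC trends, 2 with DESeq2 and 0 to 1 with single samples left out. For hypoxia in wild type and between genotypes in room air, 0 members were called with edgeR and under all alternatives. The cause of these changes was not tested. With the replicate block, 5 members were called between genotypes in hypoxia (Col13a1 and Col14a1 added). Same-numbered samples share a number and nothing more that the labels state: 12 of 24 correlations between them were over 0.1, they ranged from -0.36 to 0.46, and 19 of 48 times a sample correlated best with its own number. Of 1390 single-gene values, 1349 kept their side of the threshold, among them uncalled values that changed sign by less than their SE. A call was lost in 10 and gained in 17, and 14 uncalled values changed sign by at least their SE. In all, 59 uncalled values changed sign, and 0 called values reversed. The alternatives with GC trends removed or without the 3 samples with the smallest shares of reads in genes were chosen after seeing the data.

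There were 4 samples a group, and the members had at least 127 reads in every sample. The part of depth in the spread between samples was not tested. The intervals of the members that missed the threshold leave room for changes of the size printed beside them. Whole lung does not separate fibroblasts from other cells.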
